A study of Mus musculus with 8 samples.

Results

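The 56 genes described here lie on mouse chromosome 14, in the stretch of gene order between Zfp219 and Mtrf1, and are broadly expressed housekeeping genes of RNA processing, protein turnover, mitochondria, membrane traffic, nuclear transport and cell division. They were chosen because this stretch was lower in both knockout libraries than in the wild type, so their knockout over wild type values are given as a description and support nothing. All 56 were found by gene symbol in both deposited tables, out of 22717 features in either table and 320 in the stretch, and all 56 had a mean level of 1 or more in every pair of libraries compared. Polyadenylated RNA was sequenced from mouse 46C embryonic stem cells, strain C57BL/6 per the labels, as 8 libraries, 1 per group. At day 0 the stem cells grew on irradiated mouse embryonic fibroblasts, as a feeder layer, in medium with serum and leukemia inhibitory factor. At day 5 they had been cultured as floating aggregates in medium with knockout serum replacement, and the labels call them neural progenitor cells. On each day there was a wild type line (WT), a line labelled LincNDIME_KO (KO), and 2 short hairpin RNA lines, the control shCtrl and the one labelled shMef2c. The sources used here do not give how the KO line was made, whether it is a single clone, or which line or passage served as its parent. The RNA files hold no measure of DNA copy number, so whether the KO line carries a single copy of this stretch was not tested.

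Autosomal genes are normally transcribed from both chromosome copies, and loss of a copy lowers the transcripts of most genes roughly in proportion to the dose. Some genes depart from that proportion, because their transcription or RNA decay responds to the product or to the state of the cell. Many of the 56 encode subunits of fixed complexes, such as the proteasome, Mediator, RNA polymerase III or the large subunit of the mitochondrial ribosome. Most of the other subunits are encoded outside this stretch. Which of the 56 had KO levels near 0.5 of the WT level, and which stood closer to 1, is the question addressed.

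Library totals were 25996179 to 26834786 reads at day 5 and 20311998 to 20883634 at day 0. Mef2c, the hairpin's target, stood at 0.45, 0.10, 0.50 and 0.12 FPKM in WT, KO, shCtrl and shMef2c at day 5. At day 0 it stood at 0.23, 0.24, 0.16 and 0.37 RPKM in the same order, on 29, 26, 20 and 44 reads. Mef2c was thus not lower in the day 0 library labelled shMef2c, though these levels, all below 1, rest on few reads. By summed markers, the label of neural progenitors held least for KO and for shMef2c at day 5. The sum of 8 neural progenitor markers was 325, 112, 386 and 49.8 FPKM, and that of 8 stem cell markers 831, 2013, 599.5 and 2521 FPKM. Fabp7 was the largest neural progenitor marker in WT, at 173.7 FPKM against 29.95 in KO. Sox1 (15.76 and 12.05), Pax6 (11.99 and 8.15) and Zic1 (5.81 and 4.59) differed less between WT and KO. Pou3f1 alone was higher in KO than WT (20.38 and 11.38) and in shMef2c than shCtrl (14 and 10.95). Dppa5a was the largest stem cell marker (454.2 in WT and 1356 in KO), and Sox2 differed little (98.37 and 104). At day 0 the stem cell markers summed to 2776 to 3419 RPKM, and 10 feeder fibroblast markers summed to 216, 201, 221 and 362 RPKM, the highest in the library labelled shMef2c. In such bulk samples fewer cells of a type and less RNA per cell cannot be told apart.

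RefSeq promoter windows of the GRCm38.p6 assembly, from 250 bases before to 50 bases after the start of the gene, were available for 43 of the 56 genes. These 3 are shown because they belong to the gene with the lowest, the gene with the highest and the most abundant gene of the set, each read 5′ to 3′ on the gene's own strand. Capitals mark matches, on either strand, to the GC box GGGCGG or to CCAAT, the 2 motifs with the most matches among the 7 searched. The Ap1g2 window is chr14:55106544-55106843 on the minus strand, with 7 CpG dinucleotides. The Abhd4 window is chr14:54253879-54254178 on the plus strand, with 24 CpG dinucleotides. The Tpt1 window is chr14:75845006-75845305 on the plus strand, with 40 CpG dinucleotides.
Ap1g2: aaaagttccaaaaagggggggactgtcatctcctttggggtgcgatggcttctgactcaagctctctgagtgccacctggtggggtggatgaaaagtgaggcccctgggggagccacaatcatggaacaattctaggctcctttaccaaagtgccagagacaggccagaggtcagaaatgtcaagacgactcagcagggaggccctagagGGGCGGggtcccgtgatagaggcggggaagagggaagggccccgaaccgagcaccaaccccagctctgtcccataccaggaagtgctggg
Abhd4: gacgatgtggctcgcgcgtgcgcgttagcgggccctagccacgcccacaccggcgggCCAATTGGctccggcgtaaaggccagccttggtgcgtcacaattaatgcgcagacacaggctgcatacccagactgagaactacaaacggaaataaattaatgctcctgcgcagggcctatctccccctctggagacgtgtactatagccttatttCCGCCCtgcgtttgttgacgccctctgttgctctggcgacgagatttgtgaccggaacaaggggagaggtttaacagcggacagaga
Tpt1: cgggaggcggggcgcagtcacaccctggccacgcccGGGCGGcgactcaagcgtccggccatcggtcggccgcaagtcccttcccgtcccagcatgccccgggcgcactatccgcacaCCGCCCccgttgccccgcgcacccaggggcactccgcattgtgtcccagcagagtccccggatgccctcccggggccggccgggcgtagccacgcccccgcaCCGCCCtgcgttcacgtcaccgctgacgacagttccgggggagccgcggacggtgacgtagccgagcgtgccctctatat

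In GC boxes, CCAAT and CpG content the promoter windows of the set were close to those of all expressed features. GGGCGG was present in 27 of the 43 windows (62.8%), against 35.9% of all 27025 RefSeq windows and 66.8% of the 9658 windows of features with a mean FPKM of 1 or more in KO and WT at day 5. CCAAT was present in 37.2%, against 37.9% of all windows and 39.9% of the expressed ones. TATAAA, the core of the TATA box, was in 0 of the 43 windows, against 14.2% of all and 6.64% of the expressed. The ETS-type site CCGGAAGT was in 6 windows (14%), against 4% and 8.83%. The cyclic AMP response element TGACGTCA was in 4.65% (1.88% and 3.5%), the NRF1-type site GCGCATGC in 4.65% (2.8% and 5.79%) and the YY1-type site AAGATGGC in 6.98% (2.88% and 4.99%). These motifs were searched on both strands. The median number of CpG dinucleotides was 21, the same as in the expressed windows, against 7 in all windows. A match is a description of the letters only.

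The KO libraries held the members at a median ratio of 0.522 to WT at day 5 and 0.571 at day 0. Ratios compare a gene's share of the library's reads and carry, for single genes, an exact Clopper-Pearson 95% interval, in parentheses after the ratio, that covers counting error only. They can differ slightly from ratios of the FPKM or RPKM values, which the authors also divided by a gene length. At day 5 the 56 ratios ran from 0.342 to 0.900, and all were below 1 (50.2% of the 12832 features with a mean FPKM of 1 or more). Of these, 5 were below 0.40 (3.08%), 36 were from 0.40 to 0.60 (7.29%), 11 from 0.60 to 0.75 (10.4%) and 4 above 0.75 (79.2%). At day 0 the range was wider, from 0.325 to 1.14, with 2 below 0.40 (1.47% of 12002 features), 31 from 0.40 to 0.60 (4.41%), 12 from 0.60 to 0.75 (8.86%) and 11 above 0.75 (85.3%). A ratio of 0.5 or less was found for 22 members at day 5 (5.92% of all features) and for 12 at day 0 (2.92%). The counting interval held 0.5 for 18 members at day 5 and 16 at day 0, lay above it for 26 and 33, and lay below it for 12 and 7. Since the stretch was chosen on these ratios, nothing is read from these counts. Of the members, 23 overlap another gene in the RefSeq annotation, among them the neighbours Rab2b, Tox4 and Mettl3, the pair Gmpr2 and Tinf2 and the pair Ctsb and Fdft1. The medians of the 33 without an overlap were 0.518 and 0.570. The medians of all features were 0.999 and 1.03.

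**Figure D1:**
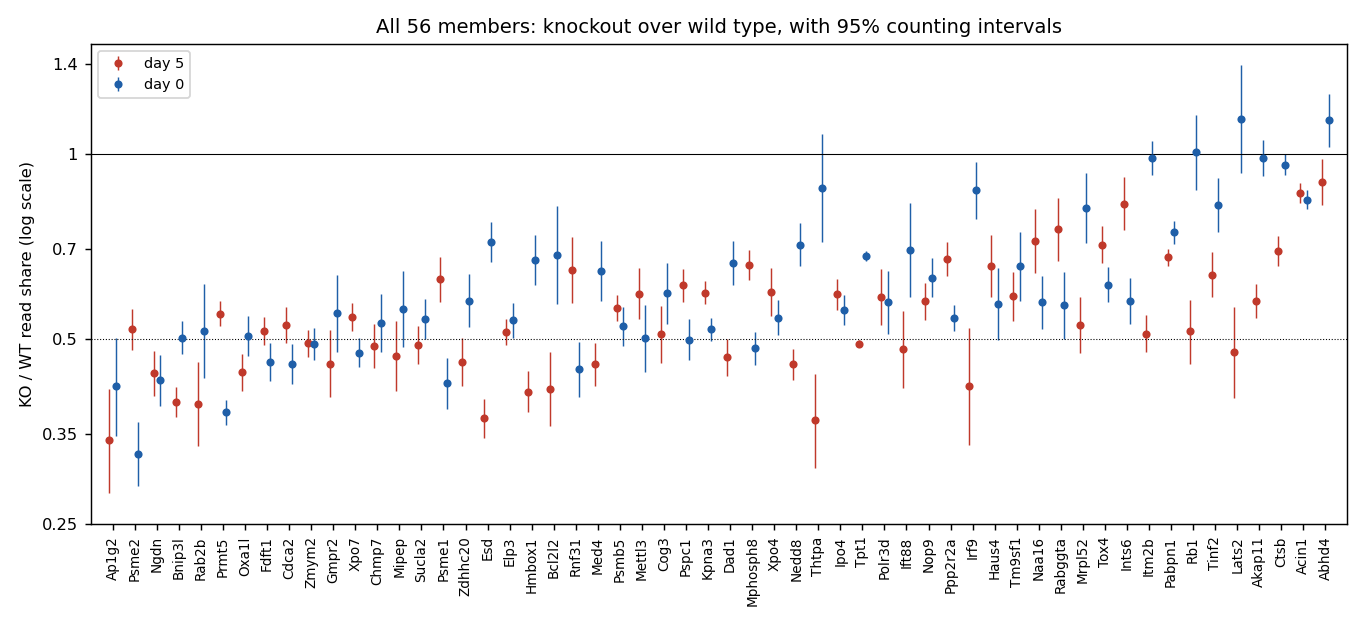
KO over WT ratio of read shares (vertical axis, log scale) for all 56 members, ordered by their mean log2 ratio of both days; points are single libraries over single libraries, red at day 5 and blue at day 0, bars are 95% counting intervals, and lines mark ratios of 0.5 and 1. Most members lie from 0.40 to 0.60, the lowest is Ap1g2 (0.342 and 0.418), and Abhd4 and Acin1 are above 0.75 on both days.

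Membrane traffic and secretory genes held both ends of the set. Ap1g2, which encodes a gamma subunit of the clathrin adaptor AP-1, had 5.23 FPKM in WT, 1.65 in KO, 6.33 in shCtrl and 5.96 in shMef2c at day 5, and 7.13, 2.81, 8.03 and 6.52 RPKM in the same order at day 0. KO was the lowest library on both days and the other lines lay close together. Its KO over WT ratio was 0.342 (0.281 to 0.414) at day 5 and 0.418 (0.347 to 0.502) at day 0, with intervals below 0.5 at day 5 and reaching it at day 0. Abhd4, a lipase of N-acyl phospholipid metabolism, had 17.6 FPKM in WT, 15.9 in KO, 19.6 in shCtrl and 24.0 in shMef2c, and at day 0 15.0, 17.0, 22.5 and 27.6 RPKM. At day 0 its lowest library was WT, not KO. Its ratios were 0.900 (0.825 to 0.982) and 1.13 (1.03 to 1.25), but against shCtrl they were 0.802 and 0.757, and against shMef2c 0.658 and 0.619. At day 0 the ratio was above 1 to WT and below 1 to each hairpin line.

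Dad1, a subunit of the oligosaccharyltransferase that glycosylates proteins in the endoplasmic reticulum, was the most abundant of these genes by FPKM. It had 149.9 FPKM in WT, 70.1 in KO, 140.5 in shCtrl and 166 in shMef2c at day 5 and 104, 68.1, 116 and 106 RPKM at day 0, with KO lowest on both days. The ratios were 0.467 (0.435 to 0.50) and 0.664 (0.611 to 0.720). Rab2b, a small GTPase of early secretory traffic, had 8.05 FPKM in WT, 3.16 in KO, 10.8 in shCtrl and 5.36 in shMef2c at day 5 and 6.63, 3.42, 5.25 and 4.84 RPKM at day 0. At day 5 shMef2c was also below both control lines for Rab2b. The KO over WT ratios were 0.392 (0.334 to 0.458) and 0.515 (0.431 to 0.615). Ctsb, the lysosomal protease cathepsin B, had 24.1 FPKM in WT, 16.8 in KO, 29.6 in shCtrl and 25.7 in shMef2c at day 5 and 140.0, 133, 149 and 205 RPKM at day 0. At day 0 the highest value was in the library labelled shMef2c, with WT and KO close together. Ctsb ratios were 0.695 (0.657 to 0.736) and 0.961 (0.924 to 0.999). Of the other members of this group, Chmp7 of the ESCRT-III membrane remodelling machinery and Cog3 of the Golgi tethering complex had 0.487 and 0.508 at day 5 and 0.530 and 0.593 at day 0. The palmitoyltransferase gene Zdhhc20 had 0.459 and 0.577, and Tm9sf1, of the endosomal TM9 family, had 0.586 and 0.656. Rabggta, the alpha subunit of the enzyme that prenylates Rab proteins, was higher at day 5 (0.754) than at day 0 (0.567), and the membrane protein gene Itm2b the reverse (0.509 and 0.984).

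Genes of transcription and chromatin had a median of 0.503 at day 5 and 0.629 at day 0 over 8 members. Med4, a subunit of the Mediator complex that links transcription factors to RNA polymerase II, was the most abundant in WT at day 5. It had 58.9 FPKM in WT, 26.8 in KO, 53.5 in shCtrl and 54.2 in shMef2c at day 5 and 30.5, 19.7, 37.1 and 41.5 RPKM at day 0, KO being lowest on both days. The ratios of Med4 were 0.454 (0.419 to 0.492) and 0.645 (0.577 to 0.721). Irf9, the DNA-binding subunit of the interferon-activated complex ISGF3, had 4.52 FPKM in WT, 1.92 in KO, 3.71 in shCtrl and 4.12 in shMef2c at day 5 and 15.4, 13.5, 17.6 and 17.1 RPKM at day 0. KO was lowest on both days, and every line was listed higher at day 0, in a table normalised separately from that of day 5. Its ratios were 0.418 (0.335 to 0.520) and 0.872 (0.785 to 0.969). Rb1, the retinoblastoma protein that restrains entry into S phase, had 6.67 FPKM in WT, 3.43 in KO, 7.09 in shCtrl and 5.06 in shMef2c at day 5 and 4.25, 4.48, 6.84 and 9.35 RPKM at day 0. WT and KO were alike at day 0, below both hairpin lines. Rb1 ratios were 0.514 (0.456 to 0.579) and 1.01 (0.875 to 1.16), but 0.635 against shCtrl and 0.456 against the library labelled shMef2c at day 0. The zinc finger gene Zmym2 had nearly the same ratio on both days, 0.491 (0.467 to 0.517) and 0.490 (0.461 to 0.520). Polr3d, a subunit of RNA polymerase III, also had close values (0.584 and 0.574). Mphosph8, of the HUSH silencing complex, and Tox4, a chromatin factor of the HMG-box type, stood at 0.660 and 0.712 at day 5 and 0.482 and 0.613 at day 0, and the homeobox gene Hmbox1 at 0.410 and 0.672.

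Among genes of RNA processing and ribosome assembly, Ngdn and Acin1 were each steady across days at different levels. Ngdn, a nucleolar factor of small ribosomal subunit assembly, had 59.2 FPKM in WT, 26.1 in KO, 51.6 in shCtrl and 56.2 in shMef2c at day 5 and 58.7, 25.1, 51.3 and 51.6 RPKM at day 0. The other lines lay close together and KO lay well below each of them. Its ratios were 0.440 (0.404 to 0.478) and 0.428 (0.388 to 0.471), with both intervals below 0.5. Acin1, a component of the exon junction-associated ASAP complex, had 72.4 FPKM in WT, 64.8 in KO, 78.3 in shCtrl and 81.5 in shMef2c at day 5 and 94.5, 78.0, 98.6 and 86.8 RPKM at day 0. KO was the lowest library on both days, by a smaller margin. Its ratios were 0.864 (0.832 to 0.896) and 0.843 (0.812 to 0.875). In the RefSeq table the Acin1 span overlaps 4 other gene entries, and how shared reads were counted is not stated in the labels or headers.

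Pabpn1, the nuclear poly(A)-binding protein, was the most abundant of this group. It had 191 FPKM in WT, 129.8 in KO, 179.5 in shCtrl and 196 in shMef2c at day 5 and 142, 106, 163 and 146 RPKM at day 0, with KO lowest on both days. Pabpn1 ratios were 0.678 (0.656 to 0.701) and 0.746 (0.714 to 0.778), both above 0.60. Its neighbour Bcl2l2 can form read-through transcripts with it, so reads of this pair could be split between them. Prmt5, the arginine methyltransferase of spliceosomal and histone substrates, had 70.7 FPKM in WT, 38.9 in KO, 55.2 in shCtrl and 61.0 in shMef2c at day 5 and 124, 47.1, 106 and 96.2 RPKM at day 0. WT was the highest library for Prmt5 on both days. The ratios were 0.549 (0.524 to 0.576) and 0.379 (0.362 to 0.397) to WT, and 0.702 and 0.443 to shCtrl. Mettl3, the catalytic subunit of the m6A methyltransferase, had 0.592 and 0.501, and Elp3, of the Elongator complex that modifies transfer RNA, had 0.512 and 0.535. The paraspeckle gene Pspc1 had 0.611 and 0.498, and Nop9, a ribosome assembly factor, 0.576 and 0.629. Ints6 of the Integrator complex had 0.830 (0.751 to 0.916) at day 5 and 0.577 (0.529 to 0.628) at day 0.

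Mitochondrial and metabolic genes had ratios from 0.368 to 0.527 at day 5, with a median of 0.456. Of these 9, 7 were 2-fold or more lower at day 5, beside 22 of all 56 members and 5.92% of all features. At day 0 their median was 0.550, and 1 of 9 was 2-fold lower, beside 12 of 56 members and 2.92% of all features. In shMef2c over shCtrl at day 5, all 9 were below 1 as well, with a median of 0.860. In that pair 27 of the 56 members, with a median of 1.02, and 7236 of 13041 features were below 1. The role groups were chosen here. Abhd4, a lipase placed with membrane traffic, had 0.900 in KO over WT and 1.22 in that pair at day 5. Bnip3l, a receptor for the removal of mitochondria by autophagy, had 52.2 FPKM in WT, 20.6 in KO, 68.0 in shCtrl and 48.9 in shMef2c at day 5 and 45.6, 22.9, 45.9 and 40.7 RPKM at day 0. KO was the lowest library on both days. Its ratios were 0.394 (0.372 to 0.417) and 0.502 (0.472 to 0.534). Mrpl52, of the large subunit of the mitochondrial ribosome, had 118 FPKM in WT, 62.4 in KO, 129 in shCtrl and 116 in shMef2c at day 5 and 66.1, 54.0, 88.0 and 90.5 RPKM at day 0. KO was again lowest, but at day 0 WT was well below both hairpin lines. Mrpl52 ratios were 0.527 (0.474 to 0.585) and 0.817 (0.717 to 0.931) to WT, and 0.613 to shCtrl at day 0.

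Thtpa and Esd were the metabolic genes whose ratios moved most between days. Thtpa, a thiamine triphosphate hydrolase, had 6.57 FPKM in WT, 2.42 in KO, 7.78 in shCtrl and 3.73 in shMef2c at day 5 and 3.62, 3.20, 4.94 and 3.84 RPKM at day 0. At day 5 both KO and shMef2c were below the 2 control lines. The ratios were 0.368 (0.308 to 0.438) and 0.881 (0.720 to 1.08). Thtpa and Ap1g2 overlap in the RefSeq table, so without strand their reads cannot be told apart where they overlap. Esd, an esterase that detoxifies formaldehyde adducts, had 53.0 FPKM in WT, 19.6 in KO, 59.5 in shCtrl and 44.6 in shMef2c at day 5 and 62.1, 45.7, 66.5 and 80.3 RPKM at day 0. KO was the lowest on both days. Esd ratios were 0.371 (0.344 to 0.399) and 0.719 (0.667 to 0.774). The others changed little between days: Fdft1, the squalene synthase of cholesterol synthesis, had 0.514 and 0.458, and Sucla2, of the succinyl-CoA synthetase, 0.489 and 0.538. The mitochondrial peptidase gene Mipep had 0.469 and 0.559, and Oxa1l, which inserts proteins into the inner membrane, 0.441 and 0.506. Gmpr2, of purine nucleotide metabolism, had 0.456 and 0.550.

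In the group of division, signalling and survival genes, Tpt1 was the most abundant of all members by FPKM and gave the narrowest intervals. Tpt1, the translationally controlled tumour protein, had 2635 FPKM in WT, 1297 in KO, 2690 in shCtrl and 3170 in shMef2c at day 5 and 1260, 859, 1578 and 1644 RPKM at day 0. KO was the lowest on both days. Its ratios were 0.491 (0.484 to 0.498) and 0.682 (0.668 to 0.696) to WT, and 0.478 and 0.544 to shCtrl. Tpt1 is known for processed pseudogenes, so its counts are uncertain where copies are near-identical. Lats2, a Hippo pathway kinase that restrains YAP, had 3.21 FPKM in WT, 1.48 in KO, 3.15 in shCtrl and 1.55 in shMef2c at day 5 and 1.88, 2.17, 2.39 and 3.54 RPKM at day 0. At day 5 KO and shMef2c were alike and below both control lines, and at day 0 WT was the lowest. The ratios of Lats2 were 0.476 (0.401 to 0.564) and 1.14 (0.929 to 1.39).

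Akap11, an anchor of protein kinase A, had 10.8 FPKM in WT, 6.24 in KO, 11.9 in shCtrl and 9.15 in shMef2c at day 5 and 9.68, 9.46, 10.6 and 12.7 RPKM at day 0. KO and WT were within counting error of each other at day 0 but not at day 5. Its ratios were 0.577 (0.541 to 0.614) and 0.985 (0.922 to 1.05). Tinf2, a shelterin subunit that protects telomeres, had 32.0 FPKM in WT, 20.4 in KO, 31.2 in shCtrl and 34.1 in shMef2c at day 5 and 22.2, 18.5, 23.9 and 25.3 RPKM at day 0. KO was lowest on both days. Tinf2 ratios were 0.636 (0.585 to 0.692) and 0.826 (0.747 to 0.914). Ift88, of the transport machinery of cilia, stood at 0.481 and 0.698, and Haus4, of the augmin complex of the spindle, at 0.658 and 0.570. Cdca2, a mitotic phosphatase regulator, had 0.526 and 0.455, and Ppp2r2a, a regulatory subunit of phosphatase PP2A, 0.675 and 0.541. Bcl2l2, an inhibitor of apoptosis, had 0.415 and 0.685.

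Protein turnover genes had a median KO over WT ratio of 0.593 at day 5 and 0.485 at day 0 over 6 members, beside 0.522 and 0.571 over all 56. Of these 6, Nedd8 alone had a higher ratio at day 0. The protease gene Ctsb, placed with membrane traffic, was also higher at day 0 (0.695 and 0.961). Psme2, a subunit of the interferon-inducible proteasome activator PA28, had 90.6 FPKM in WT, 47.0 in KO, 88.3 in shCtrl and 103 in shMef2c at day 5 and 64.3, 21.0, 40.9 and 37.9 RPKM at day 0. At day 0 WT stood above all other lines. Its ratios were 0.518 (0.480 to 0.558) and 0.325 (0.288 to 0.365) to WT, and 0.528 and 0.50 to shCtrl. Its partner subunit gene Psme1 likewise had 0.625 and 0.423 to WT, and 0.559 and 0.610 to shCtrl. Nedd8, the ubiquitin-like activator of cullin ligases, had 252 FPKM in WT, 115 in KO, 259 in shCtrl and 236 in shMef2c at day 5 and 119.5, 85, 140.5 and 137 RPKM at day 0. KO was lowest on both days. Nedd8 ratios were 0.454 (0.428 to 0.482) and 0.712 (0.656 to 0.772). Psmb5, the catalytic beta subunit of the proteasome with chymotrypsin-like activity, had 0.561 and 0.524, Rnf31, the catalytic subunit of the linear ubiquitin ligase, 0.648 and 0.446, and Naa16, an auxiliary subunit of an N-terminal acetyltransferase, 0.723 and 0.573.

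In KO over WT the 4 nuclear transport genes were the group with the least spread, all from 0.40 to 0.60 on both days. In KO over shCtrl at day 5, Kpna3 (0.543) was in that range, but Xpo7 (0.643), Xpo4 (0.671) and Ipo4 (0.841) were above it. Kpna3, an importin alpha, had 48.9 FPKM in WT, 29.1 in KO, 53.4 in shCtrl and 46.8 in shMef2c at day 5 and 72.7, 37.6, 69.4 and 62.2 RPKM at day 0. KO was well below every other line on both days. Its ratios were 0.594 (0.569 to 0.621) and 0.518 (0.496 to 0.540). Ipo4, an importin of histones and ribosomal proteins, had 0.591 and 0.557, and the exportins Xpo4 and Xpo7 had 0.596 and 0.543 at day 5 and 0.541 and 0.475 at day 0.

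Between the lines other than KO, most members stood near 1. In shCtrl over WT, which shares the WT libraries with the KO ratios, the median was 1.02 at day 5 (range 0.703 to 1.35) and 1.04 at day 0 (0.649 to 1.58). No member was 2-fold lower or higher in this pair at day 5 (0.872% and 2.02% of all features) or at day 0 (1.17% and 1.57%). In shMef2c over shCtrl, which the choice of genes did not use, the medians were 1.02 and 0.986. At day 5 Lats2 at 0.459 (0.383 to 0.547), Thtpa at 0.478 (0.412 to 0.553) and Rab2b at 0.496 (0.438 to 0.562) were 2-fold or more lower there, 3 of 56 against 7.92% of all features, and no member was 2-fold higher (6.79%). At day 0 no member was 2-fold lower (0.248%) or higher (0.653%). The SD of the members' log2 ratios was 0.22 at day 5 and 0.25 at day 0 in shCtrl over WT, 0.40 and 0.20 in shMef2c over shCtrl, and 0.31 and 0.40 in KO over WT, so the spread in KO over WT was below that of the knockdown pair at day 5. With 1 library per group no difference between lines has a replicate check.

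The KO libraries were also set against the hairpin lines. These ratios use the same KO libraries on which the stretch was chosen, so low values follow from that choice and support nothing. Against shCtrl the members' median was 0.526 at day 5 and 0.593 at day 0, with 22 (9.69% of all features) and 9 (1.92%) at 0.5 or less. Against shMef2c, a control chosen after seeing the data, it was 0.586 and 0.594, with 15 (5.11%) and 9 (3.56%) at 0.5 or less. KO was the lowest of the 4 libraries for 55 members at day 5 (27.3% of all features) and 53 at day 0 (27.8%). By read share the exceptions were Lats2 at day 5, lowest in shMef2c, and Abhd4, Lats2 and Rb1 at day 0, lowest in WT.

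**Figure D2:**
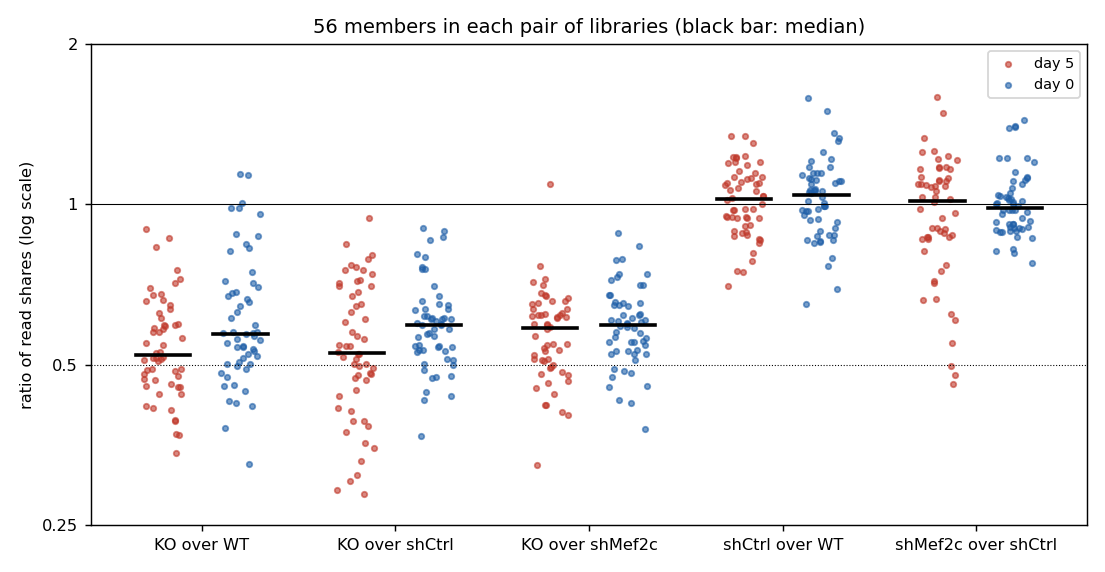
Ratio of read shares (vertical axis, log scale) for the 56 members in 5 pairs of lines at day 5 (red) and day 0 (blue); each point is a gene, black bars are medians, and lines mark 0.5 and 1. The KO pairs have medians from 0.522 to 0.594 and the pairs without KO from 0.986 to 1.04.

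Across KO over each of the other lines on both days, 6 ratios per gene that all share the KO libraries, 53 members were below 1 in all 6 (11.9% of 10699 features). All 6 were 0.60 or less for 10 members (0.439%), namely Ap1g2, Bnip3l, Ngdn, Mipep, Psme2, Oxa1l, Chmp7, Psmb5, Elp3 and Cog3. The median of the 6 was 0.355 for Ap1g2, from 0.286 to 0.454, and 0.474 for Ngdn, from 0.428 to 0.502. At the other end, 4 members were above 0.60 in all 6 (81.3%), namely Tox4, Pabpn1, Abhd4 and Acin1. Acin1 was the only member above 0.75 in all 6 (60.6%), with a median of 0.819 and a range of 0.766 to 0.881. The median of the 6 was from 0.40 to 0.60 for 40 members, above 0.60 for 15 and above 0.75 for Abhd4 (0.779) and Acin1. The other 42 members lay on both sides of 0.60, depending on the line or day they were set against.

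Most members above 0.75 to WT were so on a single day. Of the 56, 19 were from 0.40 to 0.60 to WT on both days (0.903% of 10858 features), 24 were 0.60 or less on both days (1.47%), and Abhd4 and Acin1 were above 0.75 on both (72.8%). Mrpl52, Irf9, Lats2, Rb1, Itm2b, Akap11 and Thtpa were 0.60 or less at day 5 and above 0.75 at day 0. Rabggta and Ints6 were the reverse. The day 0 values depended on the line compared. Against shCtrl, Mrpl52 (0.613), Rb1 (0.635) and Thtpa (0.648) were below 0.75 at day 0. Irf9 (0.762), Itm2b (0.858), Lats2 (0.868) and Akap11 (0.890) were above it. Against the library labelled shMef2c, Irf9 (0.786) and Thtpa (0.834) alone of these were above 0.75. Across the 56 members, which share the same 4 libraries as points, the log2 KO over WT ratios of the 2 days had a Pearson r of 0.10 and a Spearman rho of 0.0077. For KO over shMef2c, r was 0.31 and rho 0.29, and for KO over shCtrl r was -0.05 and rho -0.16. Between the log2 ratio to WT and the log2 level in shCtrl, r was 0.0032 at day 5 and -0.11 at day 0.

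The departures from the median moved with values of the knockdown pair, which has no library in common with KO over WT. At day 5 the r across members between log2 KO over WT and log2 shMef2c over shCtrl was 0.60 and rho 0.58, against 0.52 and 0.55 across 12495 features. At day 0 they were 0.58 and 0.47, against 0.19 and 0.17 across 11764 features. In summed levels at day 5, KO and shMef2c both had more stem cell marker RNA than their controls (ratios of 2.42 to WT and 4.21 to shCtrl). Both sums of neural progenitor marker RNA were lower (0.345 and 0.129). Other sums moved apart: that of 6 mesoderm markers was at 0.0797 in KO over WT and 3.07 in shMef2c over shCtrl, and that of 7 endoderm markers at 2.23 and 0.742. Most of the mesoderm sum was T, at 40.5 FPKM in WT, 0.35 in KO, 36.55 in shCtrl and 105.9 in shMef2c. Between WT and KO, Eomes differed less (3.19 and 2.49 FPKM), and Kdr alone was higher in KO (0.23 and 0.38). The part of these cell states in the members' ratios was not tested. Highest in shMef2c over shCtrl at day 0 were Lats2 (1.44), Itm2b (1.4), Ctsb (1.4) and Rb1 (1.39), and these were near 1 in KO over WT. The 10 feeder fibroblast markers were at a ratio of 1.63 in that pair and 0.929 in KO over WT. All 10 were detected at day 0, from 1.00 RPKM (Pdgfra) to 140.3 RPKM (Col1a1) in the library labelled shMef2c, and the part of feeder cells in these 4 genes' ratios was not tested.

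**Figure D3:**
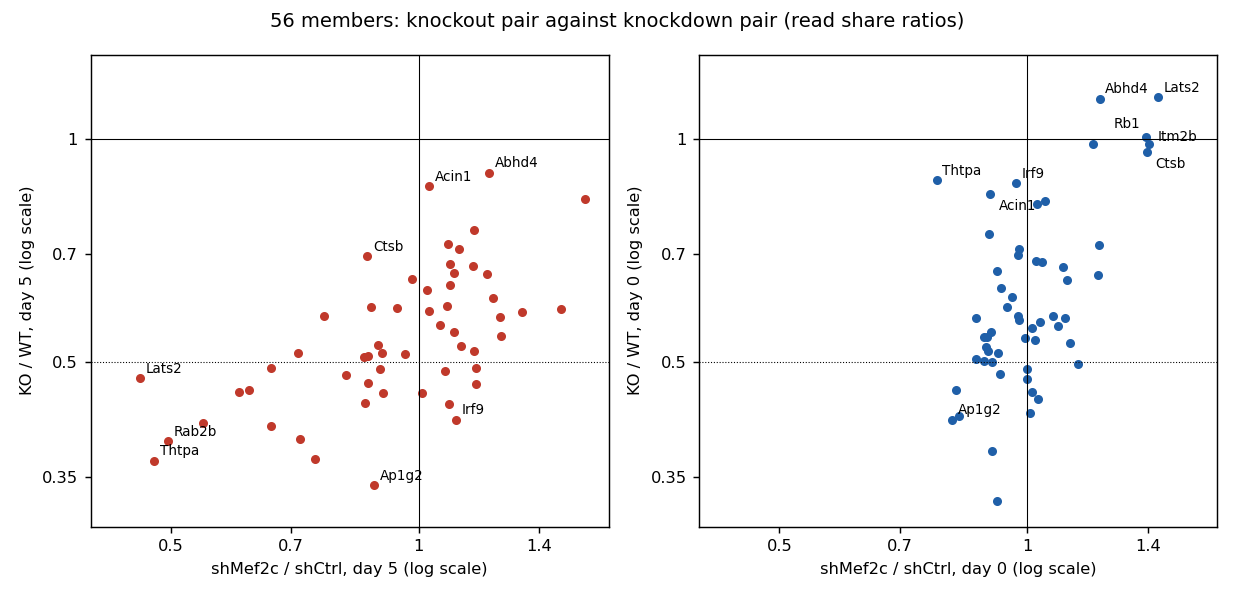
KO over WT ratio (vertical axis, log scale) against shMef2c over shCtrl ratio (horizontal axis, log scale) of the 56 members at day 5 (left) and day 0 (right); each point is a gene, solid lines mark 1 and the dotted line 0.5. At day 0 Lats2, Rb1, Itm2b and Ctsb lie to the right, from 1.39 to 1.44, and near 1 in KO over WT, while Ap1g2 lies low on both days.

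Low ratios were not particular to the 56 genes among those in the stretch. The 130 other features of the stretch with a mean of 1 or more had a median KO over WT ratio of 0.518 at day 5, with 60 at 0.5 or less, and 127 such features had 0.590 at day 0, with 30 at 0.5 or less. On chromosome 14 outside the stretch the medians were 1.08 at day 5 (248 features) and 1.11 at day 0 (241). Over all other chromosomes together they were 1.00 and 1.03. Chromosome 17 also had low medians in KO over WT, 0.791 at day 5 (601 features) and 0.854 at day 0 (610), against 1.00 and 1.03 in shCtrl over WT, so lower KO values were not limited to chromosome 14. Chromosome 11 had low medians at day 0 in the pairs that share the WT library, at 0.749 in KO over WT and 0.718 in shCtrl over WT. In shMef2c over shCtrl, without that library, it stood at 1.01, so these low medians were not particular to KO. Along the gene order the members' medians were 0.561 and 0.570 for the 27 genes from Rab2b to Nop9, 0.512 and 0.541 for the 15 from Mphosph8 to Bnip3l, and 0.512 and 0.583 for the 14 from Ppp2r2a to Naa16. The stretch was chosen on these ratios, so these medians are a description only.

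Some genes just outside Zfp219 and Mtrf1 were low as well. Before Zfp219, the purine nucleoside phosphorylase gene Pnp had 0.971 at day 5 and 0.976 at day 0, and the ribonuclease gene Rnase4 had 0.850 and 0.810. The next genes, Mettl17, of mitochondrial ribosome assembly, and Ndrg2, had 0.368 and 0.447 at day 5 and 0.504 and 0.448 at day 0. Arhgef40, between Ndrg2 and Zfp219, had 0.225 at day 5 but 0.911 at day 0. Zfp219 itself had 0.466 and 0.644. At the far end Mtrf1, a mitochondrial release factor, had 0.60 and 0.482. After it, Wbp4 and Sugt1 had 0.513 and 0.542 at day 5 and 0.534 and 0.473 at day 0, and Tdrd3 had 0.322 and 0.634. Between these, Elf1 and Diaph3 were near 1 at day 5 (1.07 and 0.916) and low at day 0 (0.676 and 0.527). Mzt1, a component of the gamma-tubulin ring, was the next with a ratio near 1 on both days, at 0.874 and 1.12. Coordinates in the files' build, mm9, were not used here, so the length of the stretch is not given.

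A few genes inside the stretch stood above the rest. Gata4, an endoderm and heart transcription factor, had 2.80 at day 5 and 0.556 at day 0. It was scarce, at 1.03 FPKM in WT and 2.88 in KO at day 5, and 0.85 and 0.47 RPKM at day 0. The germline genes Piwil2 and Rnf17 had 3.02 and 2.29 at day 5 but 1.02 and 0.939 at day 0. At day 5 Piwil2 was at 0.40 FPKM in WT and 1.21 in KO, and Rnf17 at 3.12 and 7.47. Phf11d had 2.26 and 0.766, and Nefm 1.07 and 1.69. In shMef2c over shCtrl at day 5 the log2 ratio was 2.13 for Rnf17 and 1.88 for Phf11d, so higher values of these genes were not particular to KO. The 7 endoderm markers, whose list does not hold Gata4, summed to 40.3 FPKM in WT, 89.8 in KO, 73.1 in shCtrl and 54.3 in shMef2c at day 5. They did not move together: Afp, Ttr and Cubn were at 0.30, 0.51 and 1.18 FPKM in WT and 23.3, 22.7 and 19.9 in KO, while Foxa2 was at 30.4 in WT and 6.45 in KO and Sox17 at 3.66 and 3.47. The part of other cell types in the Gata4 value was not tested.

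**Figure D4:**
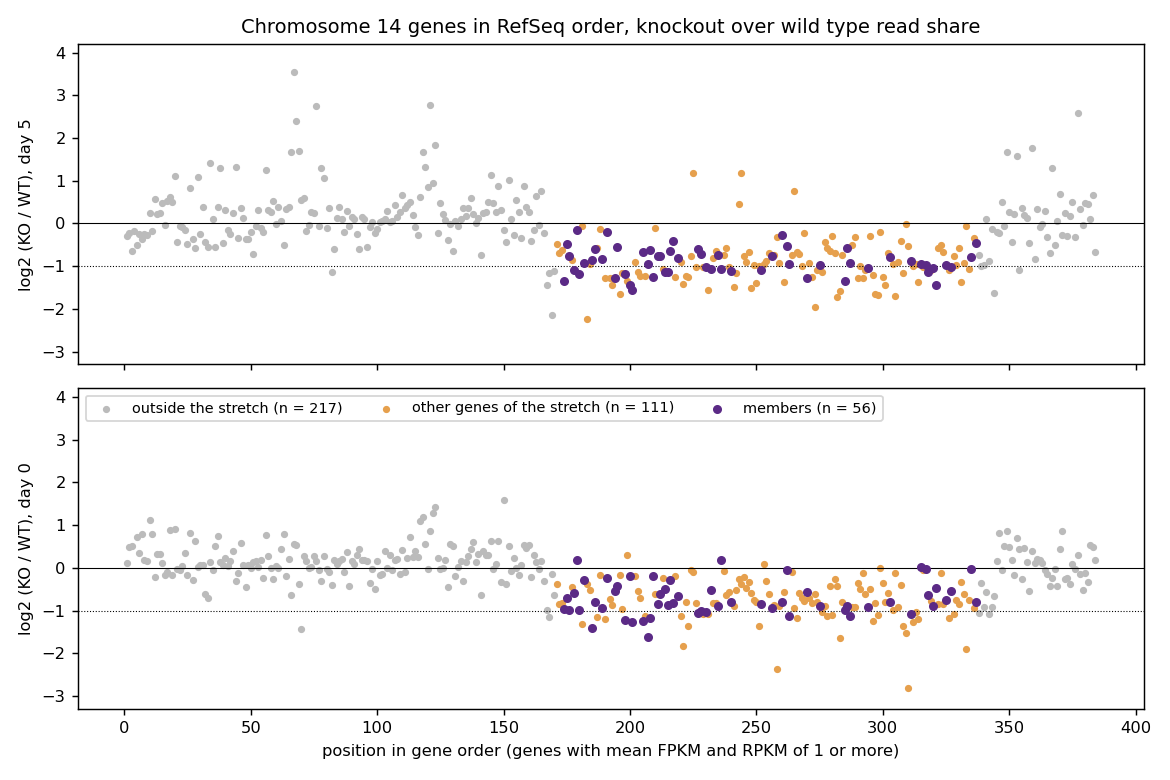
Log2 KO over WT ratio of read shares (vertical axis) of 384 chromosome 14 features with a mean of 1 or more on both days, by their place in the RefSeq gene order (horizontal axis), at day 5 (top) and day 0 (bottom); members are purple, 111 other features of the stretch orange and 217 features outside it grey. The stretch lies near -1, marked by the dotted line, and the features on either side near 0; 1 grey feature with no KO reads at day 0 is not drawn there.

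The other genes listed for the members' complexes, encoded outside the stretch, centred near 1. Of 208 listed partners in 27 complexes, 206 lie outside it, and their median KO over WT ratio was 1.01 at day 5 and 1.03 at day 0. At 0.60 or less were 3 of 206 at day 5 (10.4% of all features) and 0 at day 0 (5.88%). At day 5 these were Chml (0.488), which presents Rab proteins for prenylation, Ift22 (0.540) of cilia transport and Ap1s2 (0.572), a small AP-1 subunit, which had 1.08, 1.08 and 1.4 at day 0. Tasor of the HUSH complex was 2-fold higher at day 5 (2.08) and 1.22 at day 0. The partners are described by counts only, since the list was drawn up with the members' values known. Some lists hold a paralogue of a member, so not every partner is another subunit. These include the lists for Naa16, for Sucla2 and for Psme1 with Psme2.

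Within single complexes, 23 of 28 pairings of a member with a complex had the member below every partner at day 5, and 22 of 28 at day 0, with the members' own low ratios fixed by their choice. Mrpl52 had 0.527 at day 5, below the lowest of the 46 listed large mitoribosomal subunits, which ran from 0.740 to 1.65 with a median of 1.02. The list does not hold Mrpl57, a large mitoribosomal subunit encoded inside the stretch. Its log2 KO over WT ratio at day 5 was -1.02, against -0.923 for Mrpl52. Med4 had 0.454, below all 25 other Mediator subunits (0.645 to 1.41, median 1.01). Psmb5 had 0.561, below the 13 other core proteasome subunits (0.691 to 1.20, median 0.963), and Dad1 had 0.467, below 9 other oligosaccharyltransferase subunits (0.787 to 1.16). Cog3 had 0.508, with its 7 partners from 0.886 to 1.17. Prmt5 (0.549) had partners from 0.999 to 1.22, and Mettl3 (0.592) from 0.887 to 1.31. The 5 exceptions at day 5 were Rabggta (0.754), whose 3 partners had a median of 0.658, Acin1 (0.864), whose partners were at 0.785 and 1.05, Ints6 (0.830), Haus4 (0.658) and Tinf2 (0.636), each above its lowest partner (0.743, 0.646 and 0.623). The 6 at day 0 were Acin1, Med4, Irf9, Mrpl52, Lats2 and Tinf2. At day 0, 25 partners on chromosome 11 had a median of 0.732, beside 0.749 for that chromosome as a whole. The chromosome was also low in shCtrl over WT (0.718), which shares the WT library. On chromosome 17, 10 partners had medians of 0.756 at day 5 and 0.800 at day 0, near those of that chromosome as a whole.

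**Figure D5:**
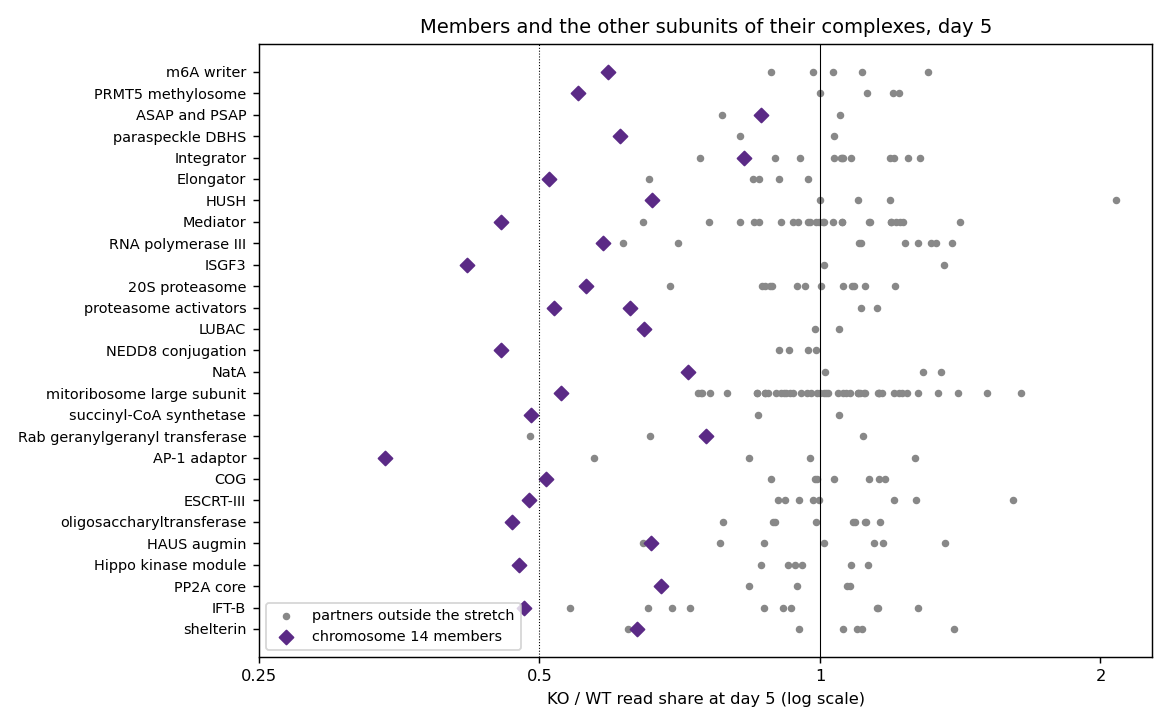
KO over WT ratio of read shares at day 5 (horizontal axis, log scale) for members (purple diamonds) and the partners listed for their complexes and encoded outside the stretch (grey points), with 1 complex per row and lines at 0.5 and 1. The 206 partners centre on a median of 1.01, and 23 of 28 diamonds lie to the left of all partners in their row.

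Paralogues of the members outside the stretch had a median ratio of 0.968 at day 5 over 31 genes. Of these, 6 were at 0.5 or less and 2 at 2 or more, against 5.92% and 5.98% of all features. At day 0 the median was 1.09 over 26 genes, with 0 at 0.5 or less (2.92%) and 1 at 2 or more (2.86%). Lats1 had 0.956 and 1.16, and Ap1g1, the paralogue of Ap1g2, had 1.06 and 1.08. Rbl2, a relative of Rb1, had 1.44 at day 5 and 2.13 at day 0, from 1.58 RPKM in WT to 3.37 in KO. Bnip3, the paralogue of Bnip3l, was lower on both days (0.498 and 0.694), and Tox2, a relative of Tox4, was at 0.198 at day 5. Ranbp17, the relative of Xpo7, was at 2.59 at day 5 and 1.00 at day 0.

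Lists of E2F, YAP and interferon target genes and of sterol synthesis genes had medians from 0.767 to 1.36. Of 21 E2F target genes, which Rb1 restrains, the median was 1.11 at day 5 and 1.10 at day 0, with Mybl2 2-fold higher at day 5 (2.30). Of YAP target genes, which Lats2 restrains, 8 had a median of 1.06 at day 5 and 9 had 1.04 at day 0, with F3 at 3.61 and Axl at 0.440 at day 5. Of 16 interferon target genes, which Irf9 drives, 9 had a mean of 1 or more at day 5, with a median of 1.36. At day 0, 15 did, with a median of 0.767. These medians cover different genes, and a gene can reach that mean through KO alone. Oasl2 did so at day 5, with 0.30 FPKM in WT and 2.70 in KO, but had 31.9 and 9.90 RPKM at day 0. Psme1, Psme2 and Irf9 are themselves known to respond to interferon, and whether that response contributes to their ratios was not tested. Sterol synthesis genes, the pathway in which Fdft1 acts, had medians of 0.835 and 0.898 over 18 genes. At day 5, 16 of 18 were below 1 (50.2% of all features), and at day 0, 12 of 18 (45.9%), with 0 at 0.5 or less on either day (5.92% and 2.92%).

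From day 0 to day 5 a smaller share of the members than of all features was 2-fold lower or higher in each line. Because the days were deposited in separate tables, ratios of day 5 to day 0 were centred on the median of all features in each line. In WT 7 members were 2-fold lower (17.8% of all features) and 1 higher (18.5%), in KO 4 (12.9%) and 1 (12.9%), in shCtrl 8 (18.1%) and 1 (18.8%), and in shMef2c 5 (12.7%) and 2 (11.8%). Irf9 had the lowest value of the 56 in every line, at 0.285 in WT, 0.139 in KO, 0.193 in shCtrl and 0.242 in shMef2c. Tpt1 had 2.06 in WT and 1.5 in KO. Lats2 had 1.76 in WT and 1.22 in shCtrl, but 0.744 in KO and 0.425 in shMef2c.

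In the authors' deposited table of KO against WT at day 5, 22 members are listed among 2253 genes, and all 22 are lower. The day 5 files hold 21069 features. That comparison uses the same libraries on which the stretch was chosen, so the direction of these members supports nothing. Among these 22 members, the lowest log2 ratio in the authors' deposited table is -1.66 for Ap1g2, followed by -1.44 for Thtpa and -1.43 for Esd. In the authors' deposited table of shMef2c against shCtrl, 3 members are listed among 2758 genes, at -1.06 for Thtpa, -1.02 for Lats2 and -1.01 for Rab2b.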

How the data were processed

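Groups of the 8 polyadenylated RNA libraries come from the labels. Per the file headers, the authors deposited expected counts (estimated, partly fractional) and FPKM values for day 5 in 1 file per library, and RPKM values with estimated counts for day 0 in 1 table. Day 5 comparison tables deposited by the authors hold log2 ratios, p-values and a false discovery rate from a method that the labels call Poisson-based. Features absent from a day 5 file were taken as 0. RSEM, Bowtie, Bowtie2, HISAT and HISAT2 appear in the submitters' processing notes beside the build mm9, without roles. The sources used here do not say whether counting used strand.

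Here estimated counts were rounded, divided by the library total and compared as ratios without a pseudocount. Features with a mean FPKM or RPKM of 1 or more over the pair are the background. Single ratios have exact Clopper-Pearson 95% intervals (scipy 1.17.1), which cover counting error only. The ratio and interval code was tested on simulated data. Since every group is 1 library, no difference was tested. Gene order and names came from a RefSeq table of GRCm38.p6, which differs from mm9, so no coordinates but those of its own promoter windows are given. Alternatives were ratios of FPKM or RPKM with and without 1 added, TMM factors (edgeR 4.0.16), size factors (DESeq2 1.42.0), other filters, ranges and control lines. Members, gene lists, ranges and the rule for named genes were chosen with earlier results of these data known. The rule gives values in every library for the 6 lowest and 6 highest members by the mean log2 KO over WT ratio, the 5 whose ratios differ most between days, and the most abundant member of each of 7 role groups.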

Additional observations from a re-analysis of the deposited data

Results flagged for a closer look

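Abhd4 was the only member whose KO over WT ratio lay on opposite sides of 1 on the 2 days with both counting intervals clear of 1. It was 0.900 at day 5 and 1.13 at day 0. The difference between days was not tested, since each value rests on 1 library per line. Groups of 1 library allow no search for outlying samples.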

How the results depend on the processing

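Of 134 alternative values of 18 counts, 115 stayed within 1.5 times the reported count. The median KO over WT ratio of the members ran from 0.518 to 0.586 at day 5 and from 0.549 to 0.594 at day 0 over all alternatives. Adding 1 to FPKM lowered the count of members at 0.5 or less in KO over WT at day 5 from 22 to 14, the count 2-fold apart in shMef2c over shCtrl at day 5 from 3 to 0, and the partners at 0.60 or less at day 5 from 3 to 1. TMM factors left 1 member 2-fold apart in shMef2c over shCtrl at day 5. TMM factors and DESeq2 size factors each put 3 partners at 0.60 or less at day 0, against 0. Counts of stretch genes at 0.5 or less, 82 at day 5 and 42 at day 0, were 124 and 64 with no filter and 52 and 25 with a mean of 5 or more, since more or fewer genes were counted. Members above 0.75 at day 5, 4 to WT, were 8 to shCtrl and 2 to shMef2c, and at day 0, 11 to WT, were 4 to the library labelled shMef2c. The comparisons with shMef2c and those without the 23 overlapping members were chosen after seeing the data. Without these 23, the counts of 33 members at 0.5 or less, from 0.40 to 0.60 and above 0.75 were 13, 23 and 2 at day 5 and 7, 19 and 5 at day 0. The cause of the other differences was not tested. No paired analysis was possible because each group has 1 library and only replicate number 1. Scaling factors leave ratios of day 5 to day 0 unchanged, since these are centred. Depth limits the scarcer members most, as the wide intervals of Ap1g2, Irf9, Thtpa and Lats2 show.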
